A study of Homo sapiens with 2 samples.

Results

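The microRNAs described here are 10 mature microRNAs known from blood vessels, connective tissue and blood cells, measured in a breast carcinoma line. They were chosen by name, with no threshold on their counts but with earlier results of these data known, and make up 10 of the 2656 mature microRNAs in the deposited table. They are the endothelial hsa-miR-126-3p and hsa-miR-126-5p, the stromal and smooth muscle hsa-miR-143-3p and hsa-miR-145-5p, the erythroid hsa-miR-486-5p, hsa-miR-486-3p, hsa-miR-451a and hsa-miR-144-3p, the myeloid hsa-miR-223-3p and the lymphoid hsa-miR-150-5p. MDA-MB-231 is an established cell line from a human breast carcinoma without hormone receptors or HER2 amplification. Its cells carried either the shRNA shELOVL5, directed at the fatty acid elongase gene ELOVL5, or the control shRNA shLuc, and 1 small RNA library was sequenced from each. Both groups were therefore cells carrying an shRNA, grown in the same serum-containing medium. The labels do not say whether clones or pools of cells were used, when cells were harvested or how far ELOVL5 was reduced. The labels' text on RNA extraction speaks of frozen tumour material, whereas the sample labels name the cell line.

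A microRNA is a short RNA cut from a hairpin precursor. Either arm of the hairpin (5p or 3p) can be loaded into an Argonaute protein, which it guides to messenger RNAs mainly by bases 2 to 8, the seed. Several of these microRNAs are used as markers because their genes are read in few lineages. miR-126 lies within EGFL7, an endothelial gene, and supports growth factor signalling in vessels. miR-143 and miR-145 mark smooth muscle and fibroblasts. miR-144 and miR-451a come from 1 erythroid gene cluster, and the miR-451a precursor is cut by Argonaute 2 in place of Dicer. miR-486 lies within ANK1, a gene of the red cell membrane skeleton that is also read in muscle. miR-223 acts in granulocytes and miR-150 in mature lymphocytes.

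The sequences below identify 6 of the 10 members and show that these 6 do not share a seed. They were taken from RefSeq on GRCh38.p14, through a sequence table from which part of the genome had been left out beforehand. The remaining members were not matched in this sequence table, which does not mean that RefSeq lacks them. Each printed sequence is written 5′ to 3′ with the seed in capitals, and hsa-miR-4770 is added because it shares the seed of hsa-miR-143-3p.
hsa-miR-126-3p: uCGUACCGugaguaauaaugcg
hsa-miR-126-5p: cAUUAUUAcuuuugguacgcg
hsa-miR-143-3p: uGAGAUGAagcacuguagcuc
hsa-miR-145-5p: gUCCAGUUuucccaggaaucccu
hsa-miR-144-3p: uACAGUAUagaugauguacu
hsa-miR-223-3p: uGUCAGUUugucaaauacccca
hsa-miR-4770: uGAGAUGAcacuguagcu
Of the 6, 5 shared theirs with no other mature microRNA in the sequence table. After that omission the sequence table held 2370 mature microRNAs, fewer than the 2656 counted. A shared seed or a near sequence in a microRNA outside it would be missed. hsa-miR-143-3p was the exception, with the same seed as hsa-miR-4770 and hsa-miR-6088. Its nearest sequence among 2369 others was hsa-miR-4770, 3 edits away, which had 0 counts in both libraries. The nearest sequence to hsa-miR-126-3p was 7 edits away, hsa-miR-12132, also with 0 counts in both. Neither of these members thus had a counted near-copy in the sequence table.

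Both arms of miR-126 come from 1 hairpin of 85 bases, shown because its arms are compared further on. It lies at chr9:136670602-136670686 on the plus strand of GRCh38, in an intron of EGFL7 and on the same strand. Capitals mark the 5p arm and then the 3p arm, with 16 bases between them.
MIR126: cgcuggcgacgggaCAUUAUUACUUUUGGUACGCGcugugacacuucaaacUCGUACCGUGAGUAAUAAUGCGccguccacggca

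The shELOVL5 library held 6811811 microRNA counts and the shLuc library 7109272. Levels are counts per 1000000 counts (CPM) after TMM scaling, which corrects library totals for composition. Their 95% intervals are exact binomial intervals of the count in its library. Ratios are shELOVL5 over shLuc, with intervals from the exact binomial share that 1 library holds of both counts. These intervals cover counting error only, and PCR copies may be counted more than once. With 1 library per group, the spread between cultures is unknown, so nothing was tested and p-values are left out. As a check of the label, hsa-miR-100-5p, hsa-miR-21-5p, hsa-miR-221-3p and hsa-miR-222-3p, abundant in this mesenchymal-like line, ranked between 1 and 6 in both libraries. Of the epithelial microRNAs fixed as low in it, hsa-miR-205-5p had 3 and 2 counts, hsa-miR-141-3p 7 and 3, and hsa-miR-200c-3p 450 and 467 (shELOVL5 first). hsa-miR-200c-3p thus went against its place on that list, with a mean of 65.9 CPM. Outside the list, hsa-miR-200b-3p and hsa-miR-200a-3p of the same family, named after their values were seen, had means of 208 and 54.3 CPM.

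The 10 members together took 0.109% of all counts in the shELOVL5 library and 0.102% in the shLuc library. Almost all of this was hsa-miR-126-3p and hsa-miR-486-5p, which gave 98.8% and 99.2% of the members' counts. The other 8 members summed to 89 counts in shELOVL5 and 60 in shLuc. A microRNA was called expressed at a mean of at least 50 unscaled CPM and at least 100 counts over both libraries, which 2 of the 10 members and 191 of all 2656 microRNAs reached. At least 10 counts over both libraries were found for 5 members and for 704 microRNAs in all. The expressed markers were therefore 1 endothelial and 1 erythroid microRNA. hsa-miR-126-5p was counted clearly at a lower level, and the other 7 had at most 12 counts in either library. In bulk RNA, few cells with much of a microRNA and many cells with little of it cannot be told apart.

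**Figure D1:**
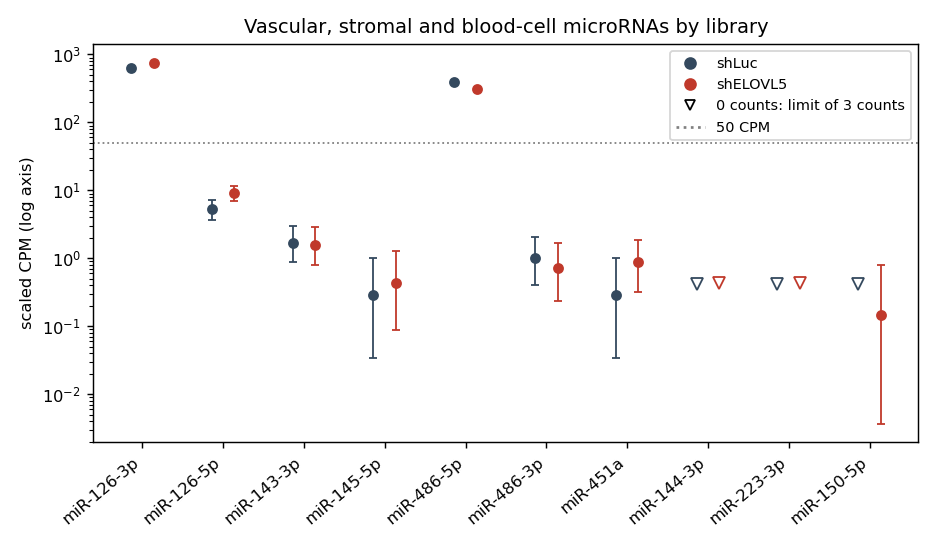
Scaled CPM (log axis) of each of the 10 members in the shLuc and shELOVL5 libraries, 1 library each, with exact 95% counting intervals. Open triangles stand at the limit of 3 counts for members with 0 counts, and the dotted line marks 50 CPM, above which only miR-126-3p and miR-486-5p lie.

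Among the endothelial members, hsa-miR-126-3p, the arm that represses the signalling inhibitors SPRED1 and PIK3R2, had 5175 counts in shELOVL5 and 4394 in shLuc. These were 750 CPM (730 to 771) and 626 CPM (607 to 645). It was the most abundant member in both libraries, at rank 75 of all microRNAs in shELOVL5 and rank 83 in shLuc. The counting intervals of the libraries did not overlap, and shELOVL5 was the higher, at a ratio of 1.20, or 0.26 on the log2 scale (0.20 to 0.32). Of the 191 expressed microRNAs, 34 (17.8%) had a ratio at least this high, and 31.9% had a counting interval wholly above 1. A shift of this size was thus common in the comparison as a whole.

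hsa-miR-126-5p, the other arm of the same hairpin, had 63 counts in shELOVL5 and 37 in shLuc, or 9.13 CPM (7.02 to 11.7) and 5.27 CPM (3.71 to 7.26). Both arms were higher in shELOVL5, with a ratio of 1.73 (1.14 to 2.68) for this one. Among the 704 microRNAs with at least 10 counts, 18.2% had an interval wholly above 1 and 16.6% were at least 1.5-fold higher. The 5p arm made up 1.20% of the hairpin in shELOVL5 (exact binomial 0.925 to 1.54%) and 0.835% in shLuc (0.589 to 1.15%). The intervals of the 2 shares overlapped. The log2 change of the 5p-to-3p ratio was 0.53, with a counting interval of -0.08 to 1.16 that includes 0. A change of at least this size in either direction was found in 58 of 185 hairpins. The hairpin was strongly one-sided in both libraries: the median share of the less abundant arm over the 185 hairpins was 3.97% in shELOVL5 and 4.05% in shLuc, and 55 and 51 hairpins had a smaller share than miR-126.

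Among the erythroid members, hsa-miR-486-5p, abundant in muscle and red cell precursors, had 2146 counts in shELOVL5 and 2788 in shLuc. These were 311 CPM (298 to 325) and 397 CPM (382 to 412), at ranks 110 and 98. Here shLuc was the higher library, again without overlap of the counting intervals. The ratio was 0.784 (0.740 to 0.829), or 1.28-fold lower in shELOVL5 (1.21 to 1.35). Of the 191 expressed microRNAs, 15 (7.85%) had a ratio this low or lower and 41.9% had an interval wholly below 1.

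miR-486 is encoded on chromosome 8 by 2 hairpins that overlap on opposite strands within an intron of ANK1. MIR486-1 lies on the strand of ANK1 and MIR486-2 on the other. The table lists the mature 5p arm once for each, and the higher value was used. The listing under MIR486-1 had 2009 counts in shELOVL5 and 2740 in shLuc, a ratio of 0.746 (0.704 to 0.791), in the same direction. The lower listing fell short of the higher by 137 counts (6.38%) in shELOVL5 and by 48 (1.72%) in shLuc. Over the 38 microRNAs listed under several precursors and holding 100 counts or more, the median gap was 0.959% and 0.797%. The gap differed between libraries by at least as much as for hsa-miR-486-5p in 4 of the 38, itself included. How the counting assigned reads to the 2 hairpins is not given in the sources used here.

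hsa-miR-486-3p, the minor arm, had 5 counts in shELOVL5 and 7 in shLuc, or 0.725 CPM (0.235 to 1.69) and 0.997 CPM (0.401 to 2.05). The intervals overlapped widely, and the ratio of 0.727 (0.182 to 2.66) gives no direction at this depth. The 3p arm made up 0.232% of both arms in shELOVL5 (0.0755 to 0.542%) and 0.250% in shLuc (0.101 to 0.515%). These shares lay close together, with a log2 change of the 3p-to-5p ratio of -0.11 (-2.11 to 1.77). Of the 185 hairpins, which leave out those without minor-arm counts, 30 in shELOVL5 and 29 in shLuc had a smaller minor share.

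**Figure D2:**
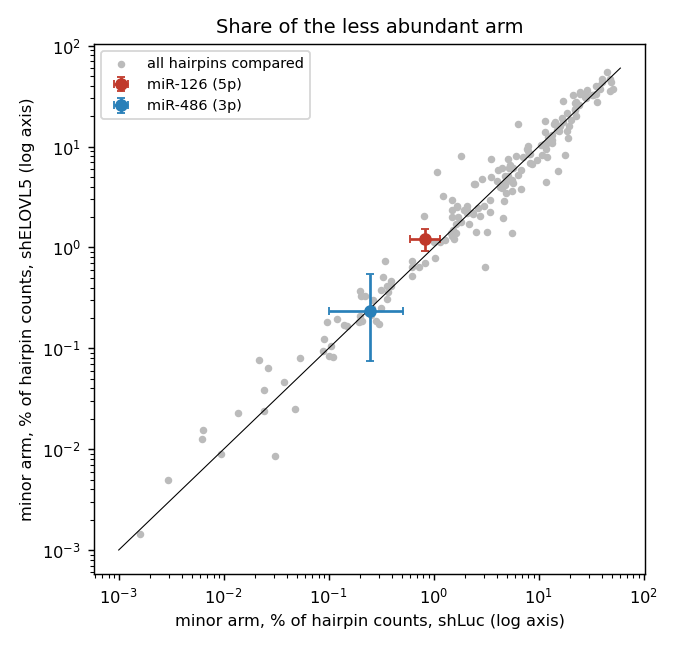
Share of the less abundant arm in a hairpin's counts, in percent, in shLuc (horizontal, log axis) and shELOVL5 (vertical, log axis) for 185 hairpins in grey, with the line of equality. Hairpins without minor-arm counts in a library are left out. miR-126 (5p, red) and miR-486 (3p, blue) carry exact 95% counting intervals, and both lie below the median share. The bars of miR-486 cross the line, while those of miR-126 stop short of it, although its intervals in the 2 libraries overlap.

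The 2 expressed members can be set against each other inside each library, which needs no scaling. There were 2.41 counts of hsa-miR-126-3p for each of hsa-miR-486-5p in shELOVL5 (2.29 to 2.54), and 1.58 in shLuc (1.5 to 1.65). The order was the same in both libraries and the distance wider in shELOVL5, beyond counting error. Of all expressed microRNAs, 31.9% had a ratio interval wholly above 1 and 41.9% wholly below, so such a split is not particular to this pair. The expressed microRNAs next to each member in abundance show how others of like depth stood. Those above hsa-miR-126-3p, hsa-miR-361-3p and hsa-miR-181a-3p, had ratios of 0.843 (0.810 to 0.876) and 0.821 (0.789 to 0.855). Those below it, hsa-let-7d-3p and hsa-miR-1260b, had 0.957 and 0.964. All 4 ratios were thus below 1. Next to hsa-miR-486-5p, hsa-miR-30b-5p, hsa-miR-16-2-3p, hsa-miR-454-3p and hsa-miR-625-3p had ratios between 1.01 and 1.11, so this member was the low one among its neighbours. Since only 2 libraries exist, no microRNA can be singled out as sharing a member's pattern.

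Of the 2 expressed members, 0 were at least 2-fold higher and 0 at least 2-fold lower in shELOVL5, where 1.57% and 0% of the 191 expressed microRNAs were. Their median log2 ratio was -0.04, with the members on opposite sides of 0, against -0.03 over all expressed microRNAs. At 1.5-fold the members' counts were again 0 and 0, where 3.14% of the 191 were higher and 0.524% lower. At the smallest fold tried, 5 to 4, hsa-miR-486-5p was lower, where 9.95% of the 191 were lower and 9.95% higher. The median size of the log2 ratio, without sign, was 0.31 for the 2 members and 0.18 for the 191. Among the 5 members with at least 10 counts, 0 were 2-fold different in either direction, where 7.81% of the 704 such microRNAs were at least 2-fold higher and 4.83% at least 2-fold lower.

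**Figure D3:**
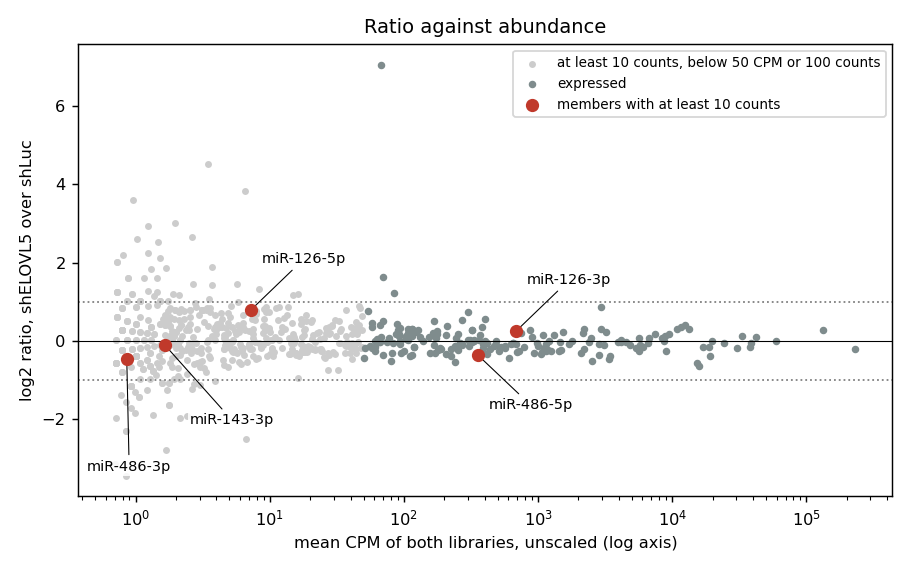
Log2 ratio of scaled CPM (shELOVL5 over shLuc) against mean unscaled CPM (log axis) for the 700 microRNAs that had 10 or more counts in all and at least 1 in each library. Red points are the 5 members with at least 10 counts, all between the dotted lines at 2-fold; dark grey points are expressed microRNAs, and the spread widens toward low CPM.

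The remaining erythroid members were scarce. hsa-miR-451a, one of the most abundant microRNAs of red cells, had 6 counts in shELOVL5 and 2 in shLuc, or 0.870 CPM (0.319 to 1.89) and 0.285 CPM (0.0345 to 1.03). The intervals overlapped, and the ratio of 3.05 had an interval of 0.546 to 30.9. hsa-miR-144-3p had 0 counts in each library. By the limit of 3 counts, a count of 0 leaves room for a level of up to 0.435 CPM in the shELOVL5 cells and 0.427 CPM in the shLuc cells. The upper bounds of the exact intervals used for the other levels are 0.535 and 0.525 CPM. MIR451A (chr17:28861369-28861440) and MIR144 (chr17:28861533-28861618) lie 92 bases apart on the minus strand, and each overlaps an annotated exon of the long noncoding gene AC024267.1. Of the erythroid members only hsa-miR-486-5p was thus expressed, with almost none of hsa-miR-451a, which in shLuc stood at 2 counts beside 2788. As ANK1 is also read in muscle, hsa-miR-486-5p alone does not mark red cells, and the source of its level was not tested.

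The stromal members were near the limit of counting as well. hsa-miR-143-3p had 11 counts in shELOVL5 and 12 in shLuc, or 1.59 CPM (0.796 to 2.85) and 1.71 CPM (0.883 to 2.99). The libraries overlapped almost fully, with a ratio of 0.933 (0.373 to 2.31). hsa-miR-145-5p, a repressor of pluripotency and smooth muscle plasticity factors such as KLF4, had 3 and 2 counts, which is too few for a ratio. MIR143 (chr5:149428918-149429023) and MIR145 (chr5:149430646-149430733) lie 1622 bases apart on the plus strand within CARMN, a long noncoding gene, MIR143 overlapping an annotated exon and MIR145 in an intron. In both libraries hsa-miR-143-3p had the larger count of the pair.

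The white blood cell members were at or next to 0 counts. hsa-miR-223-3p (MIR223, chrX:66018870-66018979, overlapping an exon of the noncoding gene AL034397.3) had 0 counts in both libraries, with the same limits as hsa-miR-144-3p. hsa-miR-150-5p, which represses MYB in lymphocytes, had 1 count in shELOVL5 and 0 in shLuc. MIR150 (chr19:49500785-49500868) overlaps no other annotated gene apart from microRNAs. No difference between the libraries was detectable for either at this depth.

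In order of level, hsa-miR-126-3p, hsa-miR-486-5p and hsa-miR-126-5p came in this order in both libraries, each separated from the next by more than its counting interval. hsa-miR-143-3p followed, separated from hsa-miR-126-5p in both libraries, but its interval overlapped those of hsa-miR-486-3p, hsa-miR-451a and hsa-miR-145-5p. It lay above the upper bounds of hsa-miR-144-3p and hsa-miR-223-3p in both libraries, and above that of hsa-miR-150-5p in shLuc alone. The order among hsa-miR-143-3p, hsa-miR-486-3p, hsa-miR-451a and hsa-miR-145-5p could not be resolved at this depth.

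Lists of related markers gave the wider setting. Of 14 vascular and stromal companions, which comprise the other arms of miR-143 and miR-145, the miR-199 and miR-214 group of mesenchymal cells and fibroblast microRNAs of the 14q32 region, 0 were expressed and 7 had 0 counts in both libraries. The list summed to 84 counts in each library. The 3 companions with at least 10 counts all came from miR-199. hsa-miR-199a-3p had 32 and 32 counts, hsa-miR-199b-3p 32 and 31, and hsa-miR-199a-5p 15 and 15. The like counts of hsa-miR-199a-3p and hsa-miR-199b-3p may be the same reads, as these molecules have the same mature sequence. The sum and share of this list may thus hold those reads more than once. The miR-199 ratios lay between 1.02 and 1.05, with counting intervals that include both 1 and the ratio of hsa-miR-126-3p.

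Of 10 blood companions, 0 were expressed and 6 had 0 counts in both libraries, among them hsa-miR-144-5p, hsa-miR-451b and both arms of miR-4732 from the miR-144 and miR-451a locus, and hsa-miR-223-5p and hsa-miR-150-3p. The list summed to 297 counts in shELOVL5 and 294 in shLuc. Its 3 members with at least 10 counts went different ways. hsa-miR-142-5p and hsa-miR-142-3p, which are found in all white blood cell lineages, had 84 and 45 counts in shELOVL5 against 6 and 2 in shLuc, ratios of 14.3 (6.28 to 39.9) and 22.9 (5.98 to 195). hsa-miR-342-3p, abundant in lymphoid cells, had 166 counts in shELOVL5 and 284 in shLuc, a ratio of 0.595 (0.488 to 0.723). In the library with more miR-142, hsa-miR-223-3p had 0 counts and hsa-miR-150-5p had 1. The source of the miR-142 counts was not tested.

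**Figure D4:**
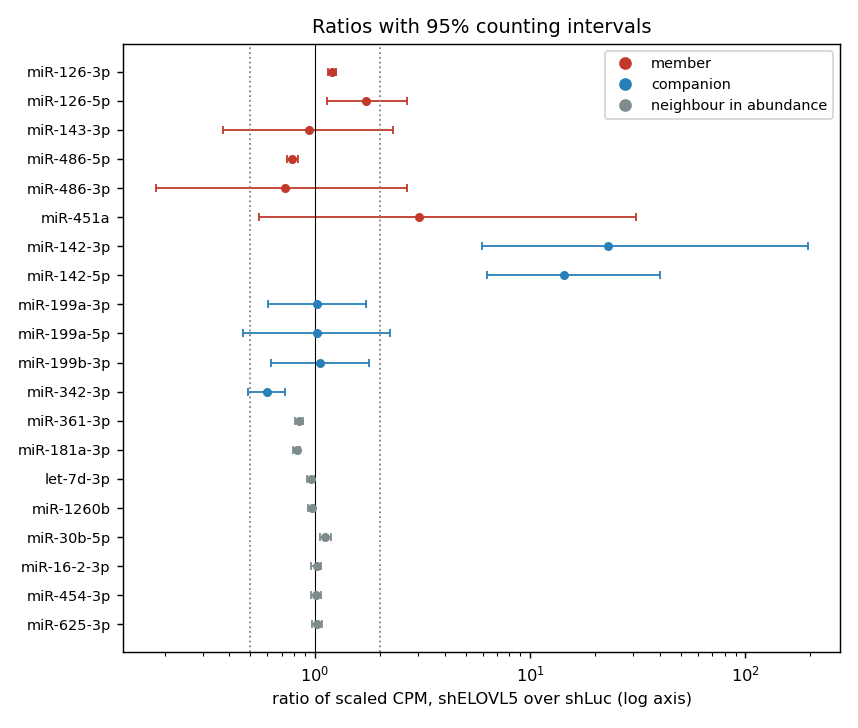
Ratio of scaled CPM (shELOVL5 over shLuc, log axis) with 95% counting intervals for 6 members (red), the 6 companions with at least 10 counts (blue) and the 8 neighbours in abundance (grey); dotted lines mark 2-fold. Of the members, miR-126-3p and miR-126-5p lie wholly above 1 and miR-486-5p wholly below, while miR-142-3p and miR-142-5p stand far to the right on few counts.

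The labels' mention of tumour material bears on these levels, since tumour tissue holds vessels, stroma and blood. In the libraries, the vascular and stromal companions summed to 0.00123% of the shELOVL5 library and 0.00118% of the shLuc library, and the blood companions to 0.00436% and 0.00414%. hsa-miR-126-3p alone took 0.0760% and 0.0618%, and hsa-miR-486-5p 0.0315% and 0.0392%. The companion lists hold no endothelial microRNA and include minor arms of scarce hairpins, so their sums do not measure how much vessel or blood was present. The part of other cells in the levels of the 2 expressed members was not tested.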

How the data were processed

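Small RNA from 1 shELOVL5 and 1 shLuc culture of MDA-MB-231 was sequenced. The deposited values are raw read counts per precursor and mature microRNA, left unnormalized by the authors. Per the submitters' processing notes, the tools included FastQC 0.11.9, cutadapt 2.10 and Bowtie 1.1.1. The counter, its settings and the microRNA release: not given in the sources used here. In the table, 2886 lines hold 2656 mature microRNAs, and the highest count per library was kept where a name had several precursors. Library totals were scaled with TMM factors from edgeR 4.0.16 in R 4.3.3 (1.01 for shELOVL5, 0.988 for shLuc). DESeq2 1.42.0 gave alternative size factors. Ratios carry Clopper-Pearson intervals at 95%, and a count of 0 allows up to 3 counts. The scripts were tested on counts simulated with counting error only, which checks the computation and not the spread between cultures.

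The members and lists were chosen with earlier results of these data known. Named microRNAs were the 10 members, their other arms, list companions with at least 10 counts over both libraries, and the 2 expressed microRNAs above and below each expressed member in mean CPM. The cell line markers, hsa-miR-4770, hsa-miR-6088, hsa-miR-12132 and companions at 0 were named beside these. Gene positions are from GENCODE release 29 (GRCh38). The deposited table holds no coordinates. Hairpin arms were compared where both arms and libraries held at least 100 counts together and the minor arm at least 1 in each library.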

Additional observations from a re-analysis of the deposited data

How the results depend on the processing

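No paired analysis was possible because each group has 1 library, which also means that none can be dropped. Of 72 values under alternatives, 61 kept within their counting interval or within 1.5 times the count. This tally does not measure stability, as each other scaling moved all log2 ratios by the same amount. Those amounts were small beside the log2 intervals of hsa-miR-143-3p (-1.42 to 1.21) and hsa-miR-486-3p (-2.46 to 1.41). All 5 member ratios that were recomputed kept their direction under the 3 other scalings. Upper quartile factors shifted every log2 ratio by -0.12, which took hsa-miR-126-3p from 0.26 to 0.14 and hsa-miR-486-5p from -0.35 to -0.47. With at least 1 count in each library as the limit, 1 of 7 members was at least 2-fold higher (hsa-miR-451a, on 6 and 2 counts), and 120 of 1024 microRNAs were higher and 77 lower, against 3 and 0. With a fold of 5 to 4 as the rule, 1 member was lower (hsa-miR-486-5p), with 19 expressed microRNAs higher and 19 lower. A 1.5-fold rule gave 0 members, with 6 microRNAs higher and 1 lower, and a mean of at least 10 CPM gave 5 higher. Depth limits 8 of the 10 members, and all ratios rest on 1 library a group.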
